A study of Mus musculus with 16 samples.

Results

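The genes described here encode the fibrillins, fibulins and other building blocks of elastic fibres, measured on expression arrays of mouse melanomas and melanocytes. Of 10 gene symbols looked for, Fbn1, Fbn2, Efemp1, Efemp2, Eln, Fbln1, Fbln2, Fbln5, Mfap2 and Mfap5, 8 were found as the single gene symbol of a probe set, and together they had 11 of the 20380 such probe sets. Fbn1 and Efemp2 are not analysed here. The members were chosen by function, with Efemp1 and Fbn2 already known from these arrays to differ in opposite directions between the tumour models. The difference between the models is therefore given for all 8 genes as a description, without a test, and the tests are those against melanocytes. These tests use the same tumour arrays, so their results for Efemp1 and Fbn2 are not independent of that choice.

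Elastic fibres have a core of crosslinked elastin (Eln) on a scaffold of microfibrils, which are polymers of fibrillin (Fbn1, Fbn2) carrying the small glycoproteins Mfap2 and Mfap5. Fibulins (Fbln1, Fbln2, Fbln5, Efemp1 and Efemp2) bridge elastin, fibrillin, crosslinking enzymes, basement membrane and integrins, and latent TGF-beta binding proteins are fibrillin relatives that tether the growth factor TGF-beta to the matrix. In skin most of these proteins are made by dermal fibroblasts.

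The series held 16 arrays in 3 groups. The iMet melanomas (n = 6) had the genotype Tyr-rtTA;Tet-Met;Ink4a/Arf-/-, and the iHRAS* melanomas (n = 6), titled iRas in the labels, had Tyr-rtTA;Tet-HRASV12G;Ink4a/Arf-/-. Both tumour models thus lacked Ink4a/Arf and drove their oncogene, the receptor tyrosine kinase Met or a mutant HRAS, through a tetracycline transactivator under the tyrosinase promoter. The labels call the tumour samples melanoma cells isolated from mice, while the series design speaks of cutaneous melanomas. Whether isolated cells or whole tumours were hybridised is therefore not settled here. The third group was disease-free melanocytes from mice (n = 4), whose genotype the labels do not state; ages, pooling and whether samples of a group came from separate mice were not given in the sources used here. All levels below are quantile-normalized log2 signals of 1 probe set, so 1 unit is a 2-fold difference, and levels of different probe sets are not set against each other.

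The engineered gene and cell type markers were examined first. Met averaged 9.47 ± 0.55 among iMet tumours, 6.94 ± 0.77 among iHRAS* tumours and 8.29 ± 0.89 in melanocytes (SD, n = 6, 6 and 4). Signals under 6.21 were counted as dim. The pigment cell gene Tyr was dim by its group mean in every group, at 4.77 for iMet tumours, 5.10 for iHRAS* tumours and 3.97 for melanocytes, while Sox10, another pigment cell marker, averaged 6.90 for iMet tumours, 10.2 for iHRAS* tumours and 9.66 for melanocytes. The keratinocyte keratin Krt14 averaged 8.73 for iMet tumours, 11.8 for iHRAS* tumours and 12.7 for melanocytes. The fibroblast collagen Col1a1 averaged 13.2 for iMet tumours, 13.4 for iHRAS* tumours and 12.6 for melanocytes, so fibroblast and keratinocyte transcripts were present on the arrays labelled melanocytes too. These melanocyte arrays fell into pairs: arrays 1 and 3 correlated at 0.96 over probe sets and arrays 2 and 4 at 0.94, against 0.87 to 0.91 across the pairs. The mean of 12 fibroblast markers was 10.2 and 10.8 on melanocyte arrays 1 and 3, against 8.28 and 7.40 on arrays 2 and 4, and the mean of 10 keratinocyte markers was 7.61 and 6.82 on arrays 1 and 3, against 9.50 and 9.66 on arrays 2 and 4. For many of the members and pathway genes that shifted with this division, results against 1 or both pairs are given. In bulk RNA of this kind, fewer cells of a type and less RNA per cell cannot be told apart.

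Against melanocytes, some of the 8 genes rose and others fell. In iMet tumours 2 genes rose, Efemp1 and Eln, and 3 fell, Fbn2, Fbln2 and Fbln5, while Fbln1, Mfap2 and Mfap5 did not pass the test (limma, adjusted p over 8651 genes). The background of called genes in that comparison was 16.4% higher and 18.7% lower. In iHRAS* tumours 3 genes rose, Eln, Fbln1 and Mfap5, and Fbln5 fell, while Fbn2, Efemp1, Fbln2 and Mfap2 did not pass, against a background of 18.1% higher and 21.3% lower. The median difference over the 8 genes was -0.37 in iMet tumours and 1.60 in iHRAS* tumours, beside -0.08 and -0.09 over all genes tested. Both comparisons use the same 4 melanocyte arrays. All 8 genes passed the filter on dim signals. Fbn2 passed it only through the iHRAS* arrays, both in the fit of tumours alone and for the comparison of iMet tumours with melanocytes.

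Between the tumour models, iMet minus iHRAS*, Efemp1 was the member whose iMet arrays all lay above the iHRAS* arrays, and Fbn2 the one whose iMet arrays all lay below them. The other 6 overlapped between the models. Over all 8058 genes compared, 5.83% lay wholly above and 4.89% wholly below, and since the choice of members used this contrast, nothing is read from the counts. The median difference of the 8 genes was -1.11, beside 0.03 over all genes. Across the 12 tumour arrays the fibroblast marker mean ran from 10.71 to 11.63 in iMet tumours and from 10.75 to 11.58 in iHRAS* tumours.

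**Figure D1:**
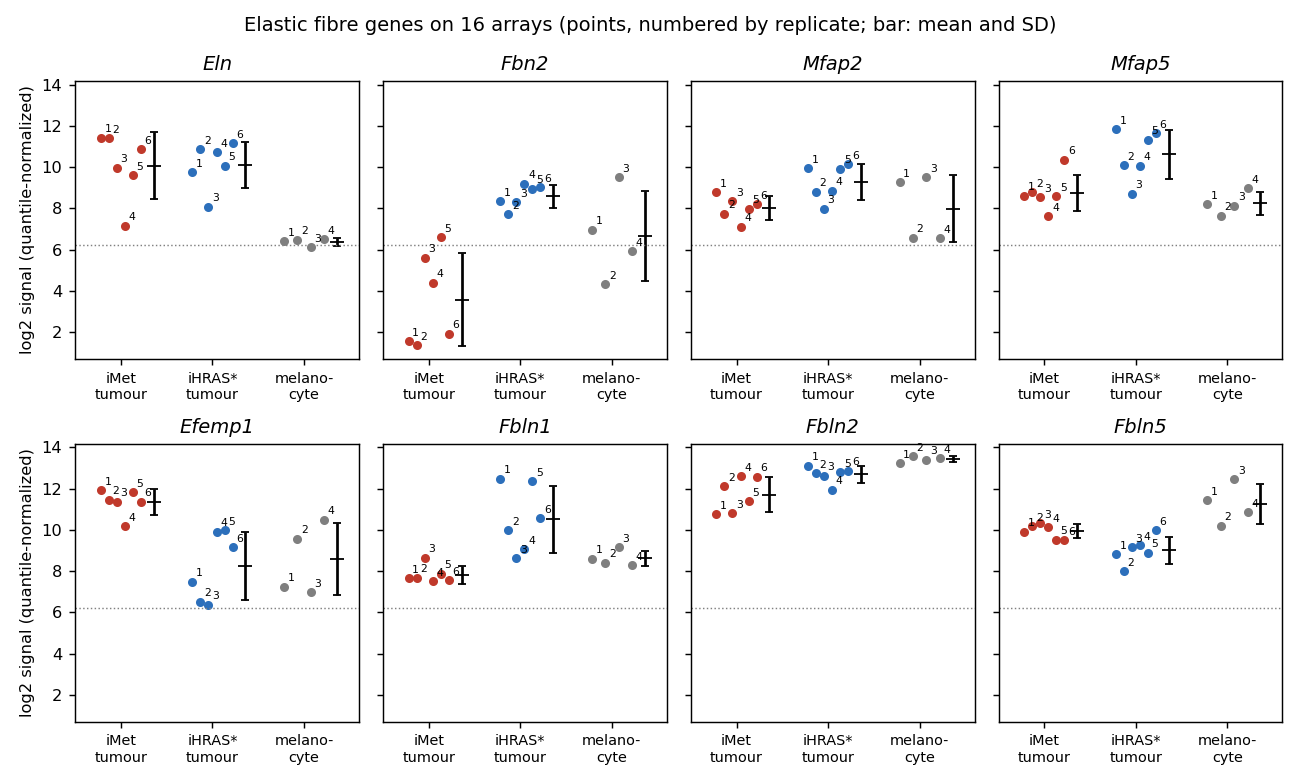
Quantile-normalized log2 signal (vertical axis) of the 8 elastic fibre genes on each array, numbered by replicate, in iMet tumours, iHRAS* tumours and melanocytes (left to right in each panel). Black bars give the mean and SD, and the dotted line marks the dim level of 6.21. Eln lies higher in both tumour groups than in melanocytes, and Fbn2 and Efemp1 separate the tumour groups in opposite directions.

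Fbn2 encodes fibrillin-2, the microfibril polymer used mainly in development. Its probe set gave 1.56, 1.38, 5.61, 4.40, 6.62 and 1.92 on iMet arrays 1 to 6 (median 3.16). The iHRAS* arrays gave 8.36, 7.73, 8.32, 9.20, 8.95 and 9.02 (median 8.66), and the melanocyte arrays 6.96, 4.33, 9.52 and 5.92. All 6 iHRAS* arrays stood above all 6 iMet arrays, of which only array 5 exceeded the dim level, and the melanocyte arrays overlapped with both. The description of the models against each other gave -5.01 ± 0.86 (log2, SE), a size that rests on dim iMet signals. Against melanocytes Fbn2 passed the test as lower in iMet tumours at -3.10 ± 1.07 (adjusted p = 0.0345), between groups in which 1 of 6 iMet and 2 of 4 melanocyte arrays exceeded the dim level. It entered that test through the iHRAS* arrays, had no value in a fit of the 2 groups alone, and missed the threshold with no dim filter (adjusted p = 0.0503). In iHRAS* tumours it was 1.91 ± 1.07 higher without passing (adjusted p = 0.167, 95% interval -0.36 to 4.19).

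Fbn2 depended on which melanocyte arrays it was set against. The brightest melanocyte signal was on array 3, one of the pair with high fibroblast marker means. Without melanocyte arrays 1 and 3 the iMet difference was -1.54 (adjusted p = 0.368) and the iHRAS* difference 3.47 (adjusted p = 0.0411); without arrays 2 and 4 they were -4.66 (adjusted p = 0.0172) and 0.36 (adjusted p = 0.864). The iMet call was also lost without iMet array 1, 2 or 6 or melanocyte array 1 or 3, with adjusted p up to 0.130, and the iHRAS* difference passed without melanocyte array 3 (2.86, adjusted p = 0.0438). Whether dermal cells in the melanocyte samples contributed was not tested.

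Mfap2 and Mfap5 encode the small microfibril-associated glycoproteins that bind fibrillin. Mfap5 had 8.62, 8.78, 8.53, 7.64, 8.58 and 10.36 in iMet tumours (median 8.60) by its brighter probe set. It had 11.84, 10.10, 8.71, 10.07, 11.34 and 11.64 in iHRAS* tumours (median 10.72), and 8.20, 7.65, 8.13 and 8.996 in melanocytes. Of the iHRAS* arrays 5 stood above every melanocyte array, and array 3 lay among them; iMet array 6 was the one iMet array above them all. In iHRAS* tumours Mfap5 rose by 2.37 ± 0.58 (adjusted p = 0.00501), and its second probe set gave 2.13 ± 0.51 with no overlap of the groups (adjusted p = 0.00488). In iMet tumours it differed by 0.51 ± 0.58 (adjusted p = 0.523, 95% interval -0.73 to 1.74), and the description of iMet against iHRAS* was -1.86 ± 0.55.

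Mfap2 had 8.79, 7.74, 8.37, 7.12, 7.997 and 8.20 in iMet tumours (median 8.10). It had 9.96, 8.81, 7.998, 8.86, 9.93 and 10.14 in iHRAS* tumours (median 9.40), against 9.26, 6.59, 9.53 and 6.57 in melanocytes. The melanocyte arrays lay at both ends, with arrays 1 and 3 high and arrays 2 and 4 low, in the same division as the fibroblast markers. The difference from melanocytes was 0.05 ± 0.61 in iMet tumours (adjusted p = 0.959, 95% interval -1.24 to 1.34) and 1.30 ± 0.61 in iHRAS* tumours (adjusted p = 0.101). Without melanocyte arrays 1 and 3 these were 1.45 (adjusted p = 0.0577) and 2.70 (adjusted p = 0.00210), and without arrays 2 and 4 they were -1.36 (adjusted p = 0.0808) and -0.11 (adjusted p = 0.901). Leaving out melanocyte array 1 alone gave 1.72 in iHRAS* tumours (adjusted p = 0.0480), and array 3 alone 1.81 (adjusted p = 0.0294). Between the models the description was -1.25 ± 0.38.

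Eln encodes tropoelastin, the monomer of the elastic core. Its brighter probe set, though not its second, was higher on every tumour array than on any melanocyte array. The brighter one gave 11.44, 11.40, 9.98, 7.16, 9.61 and 10.87 in iMet tumours (median 10.43). In iHRAS* tumours it gave 9.77, 10.86, 8.08, 10.74, 10.06 and 11.17 (median 10.40). In melanocytes it gave 6.40, 6.49, 6.12 and 6.52, close to the dim level. The lowest tumour arrays were iMet array 4 and iHRAS* array 3, and the 4 melanocyte arrays lay within 0.40 of each other. Eln rose by 3.69 ± 0.73 in iMet tumours (adjusted p = 0.00136) and by 3.73 ± 0.73 in iHRAS* tumours (adjusted p = 0.00119). Both calls held under each of the 28 alternatives run, with adjusted p up to 0.0179 and 0.0150 when a melanocyte pair was left out.

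The second Eln probe set, dim on all 4 melanocyte arrays (3.73 to 4.02), gave 9.61, 9.45, 8.20, 3.66, 7.60 and 8.63 in iMet tumours and 7.05, 8.79, 3.59, 7.40, 7.85 and 8.64 in iHRAS* tumours. On it, iMet array 4 and iHRAS* array 3 were as dim as melanocytes, and the same arrays were the lowest of their groups on the brighter probe set. Where all melanocyte arrays of a probe set are dim, the fold is given as a bound, with each dim melanocyte signal raised to the dim level. The second Eln probe set was at least 3.13-fold higher in iMet tumours (adjusted p = 0.00998) and at least 2.01-fold higher in iHRAS* tumours (adjusted p = 0.0217). The models differed from each other by -0.04 ± 0.72 on the brighter probe set, with a 95% interval of -1.61 to 1.53.

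**Figure D2:**
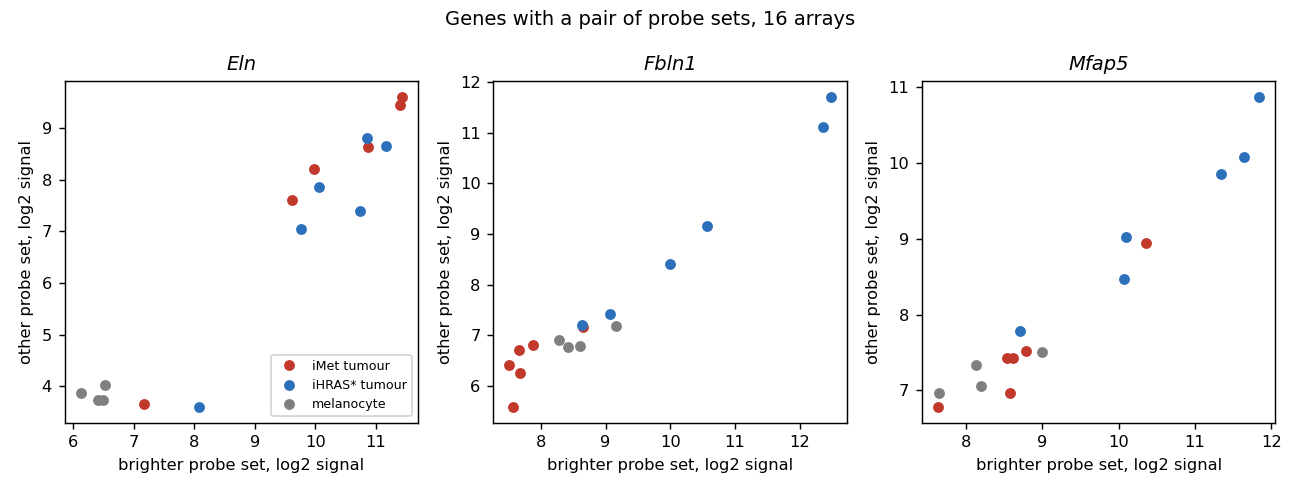
The 16 arrays by the log2 signal of the brighter probe set (horizontal axis) and of the other probe set (vertical axis) for Eln, Fbln1 and Mfap5, the members with a pair of probe sets, coloured by iMet tumours, iHRAS* tumours and melanocytes. For Eln, 1 array of each tumour model lies with the melanocytes on the vertical axis, at 3.66 and 3.59; for Fbln1 the highest arrays are iHRAS* tumours.

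Among the fibulins, Efemp1 and Fbln1 differed between the models in opposite directions and Fbln5 was lower than in melanocytes in both models, so the promoter windows of these genes are shown for comparison. They are RefSeq sequences of mouse build GRCm38.p6, found for 7 of the 10 members in the table used, read 5′ to 3′ on the gene's strand and cut to the bases ahead of every annotated transcript start. Efemp1 lies at chr11:28852955-28853153 on the plus strand, Fbln1 at chr15:85205699-85205948 on the plus strand and Fbln5 at chr12:101819120-101819369 on the minus strand. Capitals mark matches, on either strand, to the AP-1 motif TGANTCA, the TEAD motif GGAATG, the GC box GGGCGG or the TATA box TATAAA.
Efemp1: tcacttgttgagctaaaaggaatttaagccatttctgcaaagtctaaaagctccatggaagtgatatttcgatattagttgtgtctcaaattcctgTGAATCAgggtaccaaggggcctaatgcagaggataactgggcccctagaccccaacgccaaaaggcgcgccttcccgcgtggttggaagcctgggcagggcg
Fbln1: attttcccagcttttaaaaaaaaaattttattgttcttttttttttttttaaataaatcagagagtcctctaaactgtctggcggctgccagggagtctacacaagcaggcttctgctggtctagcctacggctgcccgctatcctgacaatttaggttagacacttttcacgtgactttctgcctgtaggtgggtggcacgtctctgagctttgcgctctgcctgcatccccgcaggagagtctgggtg
Fbln5: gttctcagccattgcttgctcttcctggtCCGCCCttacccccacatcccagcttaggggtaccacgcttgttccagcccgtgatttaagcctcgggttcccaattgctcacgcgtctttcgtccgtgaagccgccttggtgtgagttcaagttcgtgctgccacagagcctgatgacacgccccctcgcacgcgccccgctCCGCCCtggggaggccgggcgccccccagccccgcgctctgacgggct
The Efemp1 window held 1 AP-1 match, a motif found in 5.55% of all 32851 promoter windows of that length. The Fbln5 window held 2 GC boxes, printed as their reverse complement, and 32.7% of windows of that length hold at least 1. The 4 motifs do not overlap in these windows, and a match is only a run of letters.

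Efemp1 encodes fibulin-3, a secreted short fibulin that binds the metalloprotease inhibitor TIMP3. It gave 11.92, 11.45, 11.37, 10.17, 11.83 and 11.37 in iMet tumours (median 11.41). It gave 7.50, 6.53, 6.38, 9.92, 9.99 and 9.18 in iHRAS* tumours (median 8.34), and 7.25, 9.58, 6.98 and 10.50 in melanocytes. The 6 iMet arrays lay above all iHRAS* arrays, narrowly at iMet array 4 against iHRAS* array 5, and the iHRAS* arrays split into a low set, arrays 1 to 3, and a higher set, arrays 4 to 6. The description of the models was 3.10 ± 0.65, or 8.60-fold. Against melanocytes Efemp1 rose by 2.77 ± 0.83 in iMet tumours (adjusted p = 0.0171) and differed by -0.33 ± 0.83 in iHRAS* tumours (adjusted p = 0.775, 95% interval -2.09 to 1.43).

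The melanocyte arrays with high Efemp1 were 2 and 4, those with high keratinocyte and low fibroblast marker means. Set against arrays 2 and 4 alone, iMet tumours were 1.31 ± 0.91 higher (adjusted p = 0.309) and iHRAS* tumours differed by -1.79 ± 0.91 (adjusted p = 0.145). Set against arrays 1 and 3 alone, the differences were 4.24 ± 0.90 (adjusted p = 0.00497) and 1.13 ± 0.90 (adjusted p = 0.382). The iMet call was lost without melanocyte array 1 (2.33, adjusted p = 0.0653) or array 3 (2.24, adjusted p = 0.0626). Within the tumours, keratinocyte marker means were 4.22, 8.87, 7.78, 4.44, 6.56 and 8.75 on iMet arrays 1 to 6 and from 8.80 to 10.6 on iHRAS* arrays. The part of keratinocytes in the difference between models was not tested.

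Fbln1 encodes fibulin-1, which binds fibronectin, elastin and basement membrane proteins. Its brighter probe set gave 7.66, 7.68, 8.65, 7.51, 7.88 and 7.56 in iMet tumours (median 7.67). It gave 12.48, 9.99, 8.64, 9.07, 12.37 and 10.57 in iHRAS* tumours (median 10.28), and 8.60, 8.42, 9.16 and 8.28 in melanocytes. The tumour models overlapped only by iMet array 3 and iHRAS* array 3, and on the second probe set, at 5.58 to 7.17 against 7.20 to 11.71, they did not overlap. The description of iMet against iHRAS* was -2.69 ± 0.62 on the brighter probe set and -2.68 ± 0.72 on the second. Fbln1 rose by 1.90 ± 0.63 against melanocytes in iHRAS* tumours (adjusted p = 0.0272; second probe set 2.26 ± 0.73, adjusted p = 0.0235), and in iMet tumours it differed by -0.79 ± 0.63 (adjusted p = 0.353, 95% interval -2.14 to 0.56). The iHRAS* call was close to the threshold: it was lost without iHRAS* array 5 (1.53, adjusted p = 0.0528) and without melanocyte array 1, 2 or 4 (adjusted p up to 0.0667). It was also lost without iHRAS* arrays 5 and 6 (1.43, adjusted p = 0.0983), which stood apart in Xist, a transcript singled out after its values were seen, at 6.60 and 6.33 against 10.92 to 13.07 on the other 14 arrays. Fitted with only the 2 groups compared, iMet tumours passed as lower (-0.79, adjusted p = 0.0291) and iHRAS* tumours did not pass (adjusted p = 0.0741).

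Fbln2, a large fibulin of basement membranes and elastic fibres, gave 10.76, 12.10, 10.80, 12.60, 11.39 and 12.58 in iMet tumours (median 11.75). It gave 13.11, 12.76, 12.62, 11.96, 12.80 and 12.87 in iHRAS* tumours (median 12.78), and 13.24, 13.56, 13.41 and 13.48 in melanocytes. All 12 tumour arrays lay below all 4 melanocyte arrays. In iMet tumours Fbln2 fell by 1.72 on the log2 scale (SE 0.35, adjusted p = 0.00176), under every alternative run. In iHRAS* tumours it was -0.74 ± 0.35 and did not pass (adjusted p = 0.109, 95% interval -1.49 to 0.01), except with only the 2 groups in the fit (adjusted p = 0.0206). The models overlapped, with a description of -0.98 ± 0.35.

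Fbln5 encodes fibulin-5, which binds elastin and lysyl oxidase-like enzymes and directs elastin onto microfibrils. It gave 9.90, 10.19, 10.31, 10.13, 9.53 and 9.51 in iMet tumours (median 10.01). It gave 8.81, 7.99, 9.17, 9.26, 8.89 and 9.998 in iHRAS* tumours (median 9.03), against 11.45, 10.20, 12.47 and 10.85 in melanocytes. Every iHRAS* array lay below every melanocyte array; the iMet arrays overlapped with melanocyte array 2 alone. Fbln5 fell by 2.22 on the log2 scale in iHRAS* tumours (SE 0.40, adjusted p = 0.000597) and by 1.31 in iMet tumours (SE 0.40, adjusted p = 0.0185). Without melanocyte arrays 1 and 3 the iHRAS* difference was -1.50 (adjusted p = 0.0119) and the iMet difference -0.59 (adjusted p = 0.294); without arrays 2 and 4 they were -2.94 (adjusted p = 0.000377) and -2.03 (adjusted p = 0.00423). The iMet call was also lost without melanocyte array 1 (-1.24, adjusted p = 0.0524) or 3 (-0.90, adjusted p = 0.0712). The description of iMet against iHRAS* was 0.91 ± 0.28, in the direction of Efemp1 and opposite to Fbln1 and Fbln2.

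**Figure D3:**
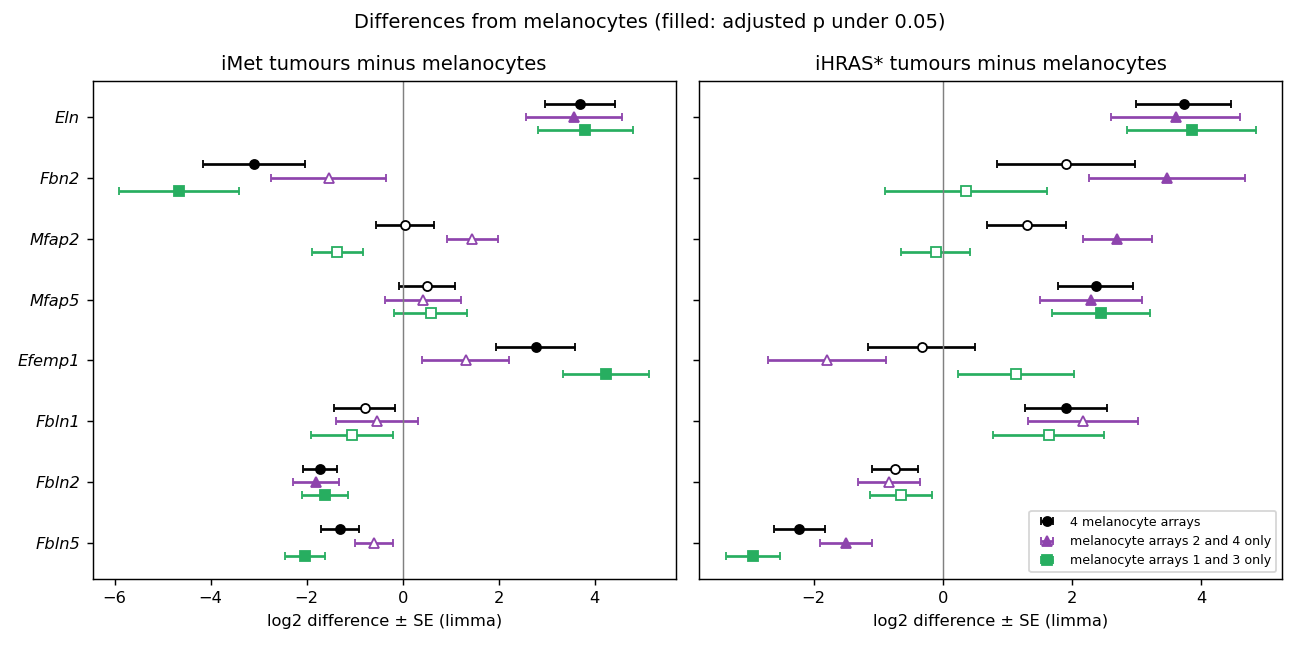
Difference from melanocytes (horizontal axis, log2, with SE bars) of the 8 genes in iMet tumours (left) and iHRAS* tumours (right), set against all 4 melanocyte arrays, arrays 2 and 4 only, or arrays 1 and 3 only; filled symbols have a limma adjusted p under 0.05. Eln stays near 3.7 in all 6 cases, while Fbn2, Efemp1, Fbln5 and Mfap2 shift with the melanocyte pair used.

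Marker genes of other cell types also differed between tumours and melanocytes. Over all genes tested, 16.4% were called higher and 18.7% lower in iMet tumours, and 18.1% and 21.3% in iHRAS* tumours. Between the models the shares were 11.2% higher and 9.7% lower in iMet tumours. No result about a cell type is read from counts near these shares. Of 12 fibroblast markers 7 were called higher in iMet tumours and 7 in iHRAS* tumours, among them Pdgfra, at 12.4 for iMet tumours, 11.5 for iHRAS* tumours and 7.74 for melanocytes. All 8 macrophage markers were higher in either model, and their mean ran from 9.78 to 10.6 among iMet tumours, 7.89 to 10.01 among iHRAS* tumours and 4.32 to 5.20 in melanocytes. Endothelial markers were higher for 8 of 8 in iMet and 7 of 8 in iHRAS* tumours, and Pecam1 averaged 8.63 for iMet tumours, 7.30 for iHRAS* tumours and 3.25, a dim signal, for melanocytes. Against melanocytes, iMet tumours were lower for 6 of 10 keratinocyte markers, with 2 higher, for 4 of 6 Schwann cell and neural crest markers and for 3 of 4 melanocyte markers, with 1 higher. In iHRAS* tumours 3 of 10 keratinocyte markers and 1 of 4 melanocyte markers were higher, and of 6 Schwann cell and neural crest markers 1 was higher and 1 lower. Between the models, iMet tumours were higher for 7 of 8 endothelial and 2 of 8 macrophage markers, and lower for 5 of 6 Schwann cell and neural crest, 4 of 9 keratinocyte and 3 of 4 melanocyte markers. Of the 12 fibroblast markers 2 were higher and 1 lower, near the shares over all genes. Of 7 smooth muscle and pericyte markers, whose cells also make elastin, 2 were higher and 2 lower than in melanocytes in either model. Between the models 0 of 6 were called. The mean of this list ran from 7.44 to 8.63 over iMet arrays and 6.84 to 10.7 over iHRAS* arrays, where array 2 was highest. Over melanocyte arrays it ran from 6.54 to 8.07. The part of these cells in the elastic fibre differences was not tested.

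**Figure D4:**
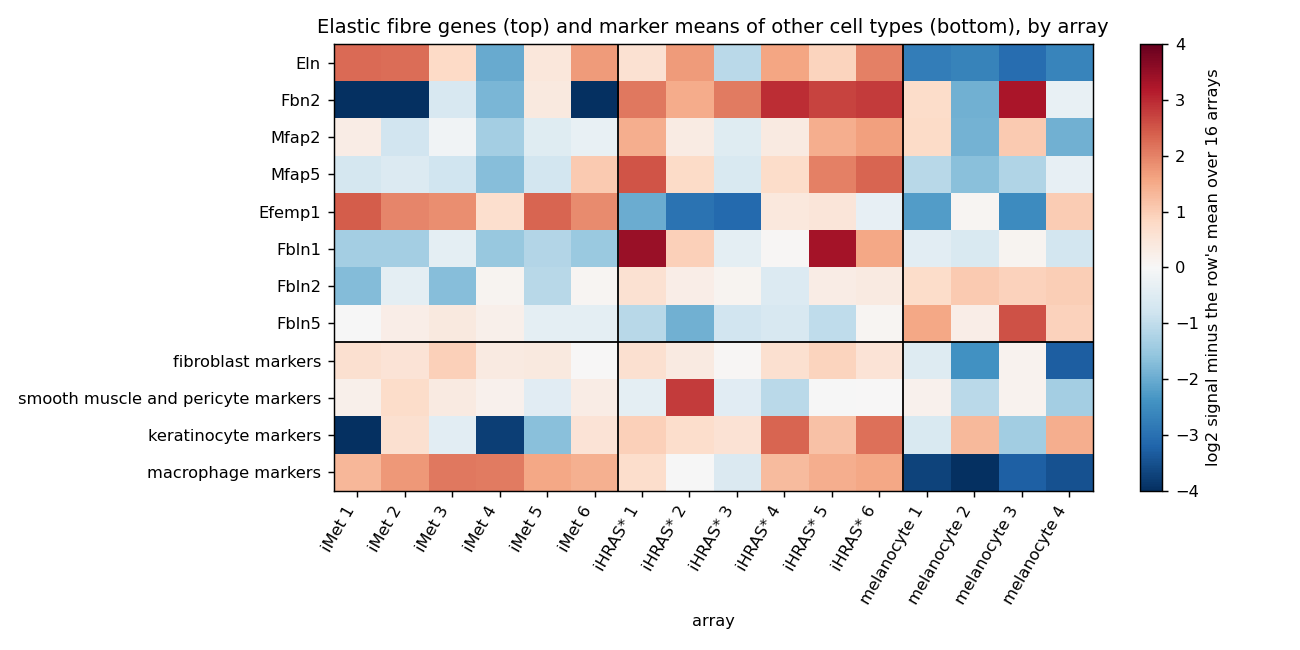
Each row shows a gene (top 8 rows) or the mean of a marker list (bottom 4 rows) on each of the 16 arrays (columns: iMet, iHRAS*, melanocyte), coloured by its log2 signal minus the row's mean over all arrays. The colour scale ends at 4 units on either side, and Fbn2 on iMet arrays 1, 2 and 6 and some marker means lie beyond it. Melanocyte arrays 1 and 3 are higher in Fbn2, Mfap2, Fbln5 and fibroblast markers, and arrays 2 and 4 in Efemp1 and keratinocyte markers.

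After group means were removed, the 8 genes did not vary as 1 unit over the 16 arrays. The highest correlations of these deviations, given as a description over arrays that share groups and preparation, were 0.60 between Fbln1 and Mfap5, 0.57 between Fbln1 and Mfap2, 0.56 between Fbln5 and Mfap2 and 0.54 between Eln and Mfap5. Fbn2 and Efemp1 were at -0.17. Among 8650 other genes, those most like Efemp1 were Sgk3 (0.89), Tm6sf1 (0.86) and Tnfaip8 (0.86), and those most like Fbn2 were Sdhb (0.82), Slc22a17 (0.82) and Sox6 (0.80), each the top of a ranking over all these genes. Removing group means leaves the division of the melanocyte arrays into pairs in these deviations. Fbn2, Mfap2 and Fbln5 were higher on melanocyte arrays 1 and 3 and Efemp1 on arrays 2 and 4, so correlations with these genes include that division. Its share in them was not tested.

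The rest of the elastic fibre pathway was followed through 50 further genes in 5 lists: crosslinking enzymes, microfibril and elastin associated proteins, the latent TGF-beta complex, elastin degrading enzymes and integrin receptors. A probe set was found for 39. Against melanocytes, 9 of 35 tested genes rose and 2 fell in iMet tumours, and 9 rose and 1 fell in iHRAS* tumours, with the same melanocyte arrays in both. The shares over all genes tested were 16.4% higher and 18.7% lower in iMet tumours, and 18.1% higher and 21.3% lower in iHRAS* tumours. The median difference of the lists was 0.59 in either model, against -0.08 in iMet tumours and -0.09 in iHRAS* tumours over all genes. Between the models 3 of 33 tested genes were higher and 5 lower in iMet tumours, beside 11.2% and 9.7% of all genes tested, and the list median was -0.02. Many of the calls against melanocytes shifted with the melanocyte pair. Of the 11 genes called in iMet tumours, 10 were called without melanocyte arrays 1 and 3 and 4 without arrays 2 and 4, namely Ctss, Mmp9, Tgfb2 and Vcan. Of the 10 called in iHRAS* tumours, 10 were called without arrays 1 and 3 and 5 without arrays 2 and 4, namely Ctss, Loxl4, Ltbp2, Tgfb2 and Vcan.

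The lysyl oxidases crosslink elastin and collagen. Loxl3 rose in iMet tumours by 2.43 ± 0.58 (adjusted p = 0.00491) and Loxl1 by 2.72 ± 0.80 (adjusted p = 0.0163). The Loxl1 call was lost without melanocyte array 2 or 4 (adjusted p up to 0.0630). Against melanocyte arrays 2 and 4 alone Loxl3 differed by 3.73 and Loxl1 by 4.77, and against arrays 1 and 3 alone by 1.13 (adjusted p = 0.131) and 0.67 (adjusted p = 0.387). Loxl4 rose in iHRAS* tumours by 1.86 ± 0.34 (adjusted p = 0.000761), with 1 of 4 melanocyte arrays above the dim level. Between the models Loxl4 was lower in iMet tumours, at 6.07 to 7.03 against 6.67 to 8.92 in iHRAS* tumours (-1.22 ± 0.30, adjusted p = 0.0139), and Loxl3 was higher (1.18 ± 0.37, adjusted p = 0.0414). The Loxl3 call between models was lost on leaving out any of 9 of the 12 tumour arrays.

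In the latent TGF-beta complex, Ltbp1, which anchors latent TGF-beta to fibrillin microfibrils, gave 10.49, 9.92, 10.42, 10.02, 9.36 and 10.16 in iMet tumours against 8.34, 8.36, 8.97, 8.91, 9.06 and 8.84 in iHRAS* tumours. The groups did not overlap, and the difference was 1.31 ± 0.20 (adjusted p = 0.00110). Ltbp1 also rose against melanocytes in iMet tumours (1.04 ± 0.27, adjusted p = 0.00746), though against melanocyte arrays 1 and 3 alone it was 0.62 (adjusted p = 0.142). Ltbp2, a fibrillin-like protein of elastic fibres, rose by 3.52 ± 0.73 in iMet tumours and 3.82 ± 0.73 in iHRAS* tumours (adjusted p = 0.00182 and 0.000943). Against melanocyte arrays 1 and 3 alone Ltbp2 was 1.98 in iMet tumours (adjusted p = 0.0545) and 2.28 in iHRAS* tumours (adjusted p = 0.0310), and against arrays 2 and 4 alone 5.05 and 5.35. Ltbp2 was dim on melanocyte arrays 2 and 4 (4.25 and 3.35), so the sizes that use those arrays rest on dim signals. The ligand gene Tgfb2 fell by 3.38 on the log2 scale in iMet tumours (adjusted p = 1.5e-06). In iHRAS* tumours Tgfb2 fell by 3.06 on that scale (adjusted p = 4.5e-06).

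Among the associated proteins, the proteoglycan Vcan, which binds fibrillin and fibulins, gave 11.27 to 11.74 in iMet tumours, 9.72 to 11.21 in iHRAS* tumours and 7.39, 4.70, 8.50 and 2.47 on melanocyte arrays 1 to 4. It rose by 5.78 ± 0.81 in iMet and 4.87 ± 0.81 in iHRAS* tumours (adjusted p = 9.3e-05 and 0.000360). Against melanocyte arrays 2 and 4 alone Vcan was 7.96 in iMet and 7.05 in iHRAS* tumours, and against arrays 1 and 3 alone 3.60 and 2.69, with a call each time. Vcan was dim on melanocyte arrays 2 and 4, so the sizes that use those arrays rest on dim signals. Between the models it was 0.91 ± 0.22 higher in iMet tumours (adjusted p = 0.0133). Mfap4, an elastin-binding glycoprotein, averaged 6.34 in iHRAS* tumours, where 3 of 6 arrays were dim, and 2.18 in melanocytes, where all 4 were. It passed as higher in iHRAS* tumours (adjusted p = 0.00338), and the bound on its fold was at least 1.10-fold higher. Mfap4 exceeded the dim level on 3 iHRAS* arrays and 1 iMet array (array 3, 6.70). It met the dim filter of 4 arrays only with that iMet array, and was tested in only 12 of the runs with 1 array left out. The iHRAS* call was lost without melanocyte arrays 2 and 4 (adjusted p = 0.0512) and held without arrays 1 and 3 (adjusted p = 0.0152). In iHRAS* tumours Emilin1, a glycoprotein at the elastin and microfibril interface, rose by 3.39 ± 0.95 (adjusted p = 0.0110) and Furin, the convertase that processes fibrillin, by 0.74 ± 0.18 (adjusted p = 0.00508). Against melanocyte arrays 1 and 3 alone Emilin1 was 1.01 (adjusted p = 0.249) and Furin 0.45 (adjusted p = 0.130), and against arrays 2 and 4 alone 5.76 and 1.03. Emilin1 was dim on melanocyte arrays 2 and 4 (4.41 and 2.00), so its sizes that use those arrays rest on dim signals. Between the models Furin was lower in iMet tumours (-0.53 ± 0.14, adjusted p = 0.0222, 0.0516 without iMet array 3), and so was Emilin1 (-1.47 ± 0.43, adjusted p = 0.0295). The Emilin1 call was lost on leaving out any of 6 arrays, with adjusted p up to 0.0624. In iMet tumours Fbln7, which encodes fibulin-7, was at least 2.13-fold higher, with all melanocyte arrays dim (adjusted p = 0.0216, 0.0874 without melanocyte array 2, and up to 0.122 without either pair), and Adamtsl5 fell by 1.28 (adjusted p = 0.00940, 0.0866 without melanocyte arrays 2 and 4). Adamtsl5 exceeded the dim level on 3 of 6 iMet arrays.

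Of the elastin degrading enzymes, the macrophage cathepsin Ctss averaged 12.4 for iMet tumours and 12.1 for iHRAS* tumours, against 3.18 for melanocytes, where all 4 arrays were dim. It was at least 71.4-fold higher in iMet tumours and at least 60.6-fold higher in iHRAS* tumours (adjusted p = 1.7e-09 and 3.7e-09), beside the macrophage markers given above. The gelatinase Mmp9 rose by 3.48 ± 0.61 in iMet tumours (adjusted p = 0.000524) and by 2.08 ± 0.61 in iHRAS* tumours (adjusted p = 0.0137, 0.0551 without melanocyte array 4, 0.191 without arrays 2 and 4). Mmp9 exceeded the dim level on 2 of 4 melanocyte arrays. Among integrin subunits, Itga9 rose by 1.06 ± 0.38 in iMet tumours (adjusted p = 0.0427, up to 0.144 without 1 array and 0.321 without melanocyte arrays 2 and 4) and by 1.37 ± 0.38 in iHRAS* tumours (adjusted p = 0.0106, 0.143 without those arrays). The Itga9 call in iMet tumours was lost without iMet array 2, 3, 4 or 6, iHRAS* array 6, or melanocyte array 1, 2 or 4. Itga9 exceeded the dim level on 1 of 4 melanocyte arrays. Between the models Itgb3, a subunit of fibulin-5 and fibrillin receptors, was lower in iMet tumours (-2.67 ± 0.75, adjusted p = 0.0245). The adjusted p was up to 0.0567 without iMet array 3, 5 or 6. Itgb3 exceeded the dim level on 5 of 6 iHRAS* and 1 of 6 iMet arrays. It thus entered this test mainly through the iHRAS* arrays. With an iMet mean of 3.69, under the dim level, the size of its difference rests on dim iMet signals. Itga5, of the fibronectin receptor, was also lower (-0.70 ± 0.22, adjusted p = 0.0398, up to 0.0809 without 1 array).

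**Figure D5:**
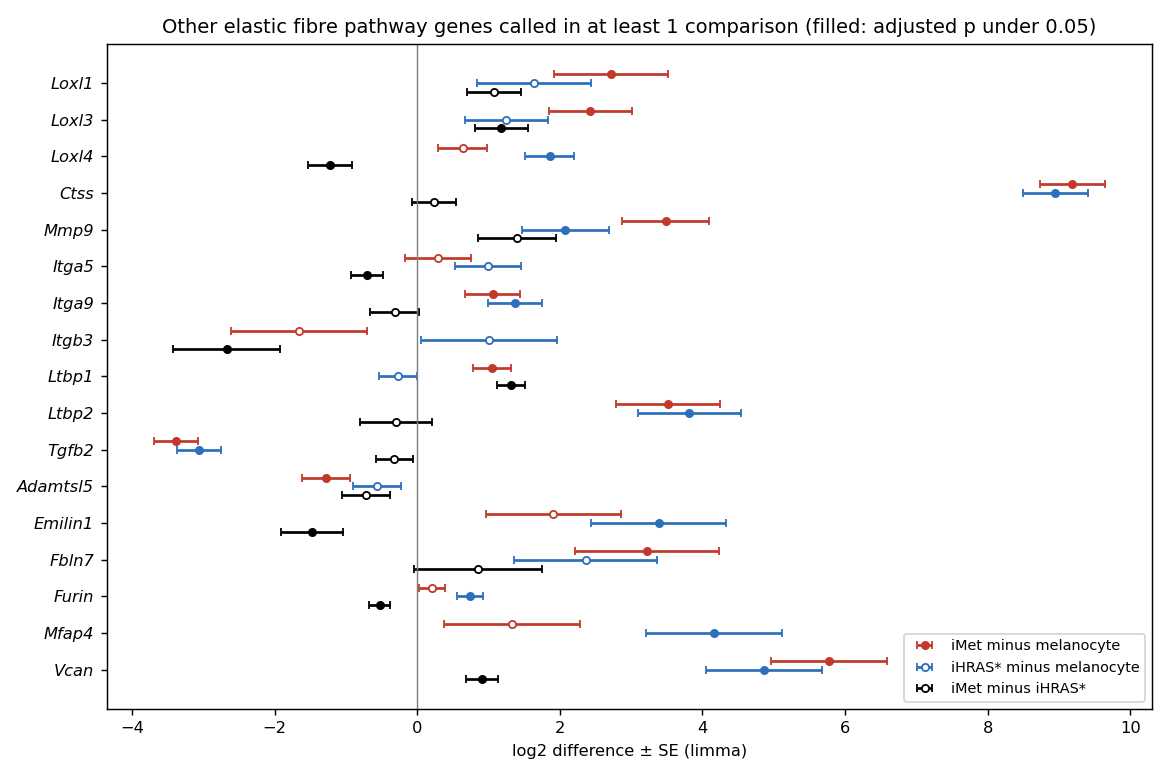
Log2 differences with SE (horizontal axis) of the 17 other pathway genes called in at least 1 comparison, for iMet minus melanocyte, iHRAS* minus melanocyte and iMet minus iHRAS*; filled points have a limma adjusted p under 0.05. Differences of Ctss, Mfap4 and Fbln7 are set against melanocyte signals that are dim on all 4 arrays. Ctss, Vcan and Ltbp2 stand above zero in both tumour models, and Ltbp1 is called higher in iMet tumours against either other group.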

How the data were processed

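RNA of 16 samples was hybridised to Affymetrix M430A_2 mouse expression arrays. The authors deposited log2 values for 22690 probe sets; their summarisation method was not given in the sources used here. After 64 control probe sets were left out, the array medians (6.56 to 7.28) spread by 0.72, over the limit of 0.3 set for it, so the values were quantile-normalized. Under the platform annotation 20380 probe sets had 1 gene symbol, 691 several and 1555 none; genes (12393) took their probe set with the highest mean. Genes had to exceed the 40th percentile (log2 6.21) on 4 of 16 arrays, or on 6 of 12 in the fit of tumours alone. limma 3.58.1 in R 4.3.3 (lmFit, eBayes, two-sided) fitted all 16 arrays against melanocytes, and the 12 tumour arrays between models; a call needed p under 0.05 after Benjamini-Hochberg adjustment over all genes tested. The script was tested on simulated data.

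The members and lists were chosen with earlier results of these data known. Named were all members, up to 4 called genes of each list with the smallest adjusted p, the 3 genes most like Efemp1 and Fbn2, and the defining markers Col1a1, Pdgfra, Pecam1, Krt14, Sox10 and Tyr. Samples were grouped by title. Deviations of same-numbered arrays correlated at -0.22 to 0.11. This gave no sign of pairing by number but cannot exclude it, and samples were treated as unpaired in the main fits. Nothing says that samples came from separate mice, so p-values rest on the spread between these samples, and the number of arrays limits the precision. The melanocyte arrays, which fell into pairs, were counted as 4 separate samples. If arrays of a pair were not independent, p-values against melanocytes are too small. Alternatives were scaling, dim filter, probe set rule, mean trend, replicate block, samples in the fit and arrays left out.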

Additional observations from a re-analysis of the deposited data

Results flagged for a closer look

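Within groups, the members' probe sets were examined for an array far from the others of its group, over 33 combinations of probe set and group; chance alone would single out about 1 in 20 of them. Efemp1 was lowest on iMet array 4 (10.17), apart from the other 5 iMet arrays. The second Eln probe set was lowest on iMet array 4 (3.66) and on iHRAS* array 3 (3.59). Fbln1 was highest on iMet array 3 (8.65), and the second Mfap5 probe set on iMet array 6 (8.94).

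Fbn2 lay below the melanocyte mean on all 6 iMet arrays and above it on all 6 iHRAS* arrays, with iMet minus iHRAS* at -5.01. This difference was not tested, because the members were chosen with it known.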

How the results depend on the processing

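The 12 alternatives besides leaving out 1 array, and each array left out in turn, gave 1190 recomputed values of tested genes: 1068 kept sign and side of the threshold, 102 lost the call, 7 gained one and 13 changed sign, of which 0 were called under either setting. Of 167 recomputed differences between models, which had no test, 8 changed sign, all of Eln. The uncalled Mfap2 in iMet tumours was -0.026 with centred arrays, -0.16 under the replicate block and -1.36 without melanocyte arrays 2 and 4 (range -0.43 to 0.56 with 1 array left out). Without those arrays Efemp1 in iHRAS* tumours was 1.13 (range -0.86 to 0.31 with 1 array left out) and Mfap2 in iHRAS* tumours -0.11. Causes of the changes were not tested. Among members, Eln in both models, Fbln2 and, in iHRAS* tumours, Fbln5 and Mfap5 kept their calls throughout. Members called in iMet tumours against melanocytes became 1 higher under the replicate block and without melanocyte arrays 1 and 3 (range 1 to 2 with 1 array left out), and 1 lower without arrays 1 and 3 (range 1 to 3). In iHRAS* tumours members called higher ranged from 2 to 5 with 1 array left out, and 2 were lower with only the 2 groups in the fit. Under the replicate block Efemp1 in iMet tumours was 2.38 (adjusted p = 0.0527) and Fbln1 in iHRAS* tumours 1.69 (adjusted p = 0.0760). Values as deposited gave Fbn2 in iMet tumours -2.88 (adjusted p = 0.0563) and Fbln1 in iHRAS* tumours 1.68 (adjusted p = 0.0594); Fbn2 in iMet tumours was also lost without the dim filter (adjusted p = 0.0503) and without iHRAS* arrays 5 and 6, the arrays low in Xist (adjusted p = 0.0509), and Fbln1 in iHRAS* tumours without those arrays (1.43, adjusted p = 0.0983), without melanocyte arrays 1 and 3 (2.17, adjusted p = 0.0652) and without 2 and 4 (1.64, adjusted p = 0.182). Pathway genes called lower in iMet tumours against melanocytes became 4 when arrays were centred on their medians, 1 with the dim filter at the 60th percentile, 4 with the mean of probe sets and 5 without melanocyte arrays 2 and 4. For iHRAS* tumours, 15 were higher without melanocyte arrays 1 and 3 and 5 without 2 and 4; lower ones became 2 as deposited, 2 centred, 4 with the mean of probe sets, 4 without melanocyte arrays 2 and 4, 3 without iHRAS* arrays 5 and 6, and 1 to 2 with 1 array left out. Between models, pathway genes were 5 higher and 1 lower as deposited; lower ones became 3 centred, 3 without the dim filter, 3 at the 60th percentile, 1 under the replicate block, 2 without iHRAS* arrays 5 and 6, and 2 to 6 with 1 array left out. With every probe set on its own, calls over the whole array became 2479 lower in iMet and 3094 lower in iHRAS* tumours against melanocytes and 1387 higher between models, since more features were tested; without melanocyte arrays 2 and 4, 1117 were lower in iHRAS* tumours. Scaling moved the balance of calls: between models 905 genes were higher and 782 lower, but 1800 and 448 as deposited, where the median of all genes moved to 0.23 from 0.03. Against melanocytes, 46.6% of calls in iMet tumours and 46.0% in iHRAS* tumours were higher, but 56.0% and 35.6% as deposited and 33.8% and 34.2% when centred, with medians of 0.01 and -0.21, and of -0.22 and -0.23. Dim signals limit Fbn2, Itgb3 and Adamtsl5 in iMet tumours, and Mfap4 in iHRAS* tumours. In melanocytes they limit Fbn2, the second Eln probe set, Ctss, Mfap4 and Fbln7. They also limit Loxl4 and Itga9, above the dim level on 1 of 4 melanocyte arrays, and Vcan, Ltbp2, Emilin1 and Mmp9, on 2 of 4.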
